A study of Homo sapiens with 18 samples.

Results

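The 10 genes described here are a brake on phosphoinositide 3-kinase (PI3K) and a group of genes tied to FOXO factors, growth arrest or quiescence: PIK3IP1, YPEL3, TP53INP1, CCNG2, SESN1, SESN3, FOXO1, FOXO3, TXNIP and PDCD4. PIK3IP1, YPEL3 and TP53INP1 were chosen because their RNA was lower with wild-type MMSET II than with DSRed on these arrays, and the other 7 were chosen for their known roles. They are read by 16 of the 48803 probes. At least 1 probe of each gene passed the detection filter, 14 probes in all, and the remaining 2, both for FOXO3, were detected on no array.

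Growth factors and cytokines activate PI3K, which makes a membrane lipid that recruits the kinase AKT. AKT phosphorylates the FOXO transcription factors and keeps them out of the nucleus, and it feeds the growth kinase mTOR. When the pathway is quiet, nuclear FOXO factors raise genes that slow the cell cycle, limit growth and lower nutrient uptake. In myeloma, a cancer of plasma cells, this pathway carries survival signals from interleukin-6 and insulin-like growth factor.

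Gene expression was read on 18 Illumina bead arrays of KMS11, a human myeloma line with the t(4;14) translocation that drives MMSET (gene NSD2, a histone H3 lysine 36 methyltransferase), in 6 groups of 3 arrays. In the first system the cells carried a doxycycline-inducible hairpin against the 5′ region of MMSET, grown with doxycycline to switch it on (+DOX) or without (no DOX). In the repletion system, KMS11 cells labelled as MMSET knock-outs were infected with a retrovirus. It was an empty vector (DSRed, the control), wild-type MMSET II, the F1177A mutant, which the labels call active, or the Y1118A mutant, which they call inactive. All 4 repletion groups thus carry the knock-out, and neither system has an array of uninfected parental cells here. No group received doxycycline without the hairpin, so the drug and the hairpin cannot be told apart in +DOX against no DOX. The labels speak of triplicates and name no separate cultures or clones, so the p-values cover only how much these arrays vary, which could be technical variation. A level is a quantile-normalised log2 intensity, a difference is a log2 difference of group means with its standard error (SE), and a gene is called where its adjusted p from limma, over all 10954 features, is under 0.05.

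The arrays differed in brightness in step with some groups. The 95th percentile of intensity was 241.5 to 349.4 with no DOX and 430.3 to 620.7 with +DOX. In the repletion cells it was 368.5 to 493.1 for F1177A, 746.5 to 775 for Y1118A, 621.9 to 889.5 for MMSET II, and 453.5 to 491.4 on the first 2 DSRed arrays but 1032.6 on DSRed replicate 3. The part of brightness in the differences was not tested. Values under median scaling, which shifts each array to a common median of all 48803 probes, stand beside the results it changes. Between 22% and 24.9% of probes were detected per array, so that median is a background value. The shift therefore need not even out the brightness of detected probes. Against quantile normalisation it did not move all features alike. With +DOX, FOXO3 went from 0.38 to 1.04, while SESN3, near background, went from 0.30 to 0.29. Values relative to all features subtract the median difference of all features, so they are a rough guide and least apt for dim genes. The only NSD2 probe that was detected read 6.64 ± 0.15 (SD, n = 3) with no DOX and 5.94 ± 0.06 with +DOX. In the repletion groups it read 5.63 to 5.80, DSRed included, so it does not check their labels. Over all 10954 features Y1118A lay nearest to MMSET II (root mean square log2 difference 0.34), and F1177A lay nearest to DSRed (0.38), to which Y1118A was as near (0.38). Of 10 plasma cell markers, 7 were detected on all 18 arrays and CD38 on none, with mean levels of the list between 9.01 and 9.97 in the 6 groups. Of 5 T cell and 5 monocyte markers, 4 each were detected on no array, as were 5 of 8 stromal, endothelial and epithelial ones. In such bulk RNA, fewer cells with a transcript and less transcript per cell cannot be told apart.

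The start regions of PIK3IP1, YPEL3 and TXNIP are shown because they are the member windows that hold GTAAACA, the core of the FOXO binding motif. Windows of 300 bases, from 250 before to 50 after the annotated start, came from RefSeq (build GRCh38.p14). There were 16 windows for 9 of the genes and none for TP53INP1, which was therefore not searched. The motif was searched on both strands and is in capitals, on whichever strand it matched.
PIK3IP1 (chr22:31292439-31292738, minus strand): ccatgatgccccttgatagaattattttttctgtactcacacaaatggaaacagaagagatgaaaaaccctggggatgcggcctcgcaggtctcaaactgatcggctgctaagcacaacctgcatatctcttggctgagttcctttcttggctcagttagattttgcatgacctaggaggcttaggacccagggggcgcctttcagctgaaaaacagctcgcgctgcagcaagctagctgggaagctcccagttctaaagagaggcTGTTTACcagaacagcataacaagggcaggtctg
YPEL3 (chr16:30096164-30096463, minus strand): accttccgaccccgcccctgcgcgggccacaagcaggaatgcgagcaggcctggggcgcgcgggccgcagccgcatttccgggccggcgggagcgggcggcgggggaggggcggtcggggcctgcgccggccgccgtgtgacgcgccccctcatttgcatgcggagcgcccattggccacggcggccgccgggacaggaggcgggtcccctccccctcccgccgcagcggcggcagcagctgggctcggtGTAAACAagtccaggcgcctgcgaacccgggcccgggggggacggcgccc
TXNIP (chr1:145996530-145996829, minus strand): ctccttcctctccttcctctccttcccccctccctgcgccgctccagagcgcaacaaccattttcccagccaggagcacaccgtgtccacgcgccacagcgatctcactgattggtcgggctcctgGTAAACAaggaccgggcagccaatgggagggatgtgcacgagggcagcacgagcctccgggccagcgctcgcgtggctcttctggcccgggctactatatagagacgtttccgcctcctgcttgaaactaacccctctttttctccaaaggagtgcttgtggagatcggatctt
In PIK3IP1 the match lies on the strand opposite to the gene, with its first printed base at +17 from the start. The matches in YPEL3 at +1 and in TXNIP at -124 lie on the gene's own strand and also fit the longer form GTAAACAA, which contains the first motif. Of 35116 windows of all genes, 3.42% held GTAAACA and 0.954% held GTAAACAA. PIK3IP1 and TXNIP each have a second window without the motif. The E-box CACGTG, searched in the same way, was in 7.26% of all windows and, among the 9 genes, in CCNG2 alone. These matches are letters in a window, and no binding was measured.

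PIK3IP1 is a transmembrane protein that binds the catalytic subunit of PI3K and dampens it. It read 8.94, 8.28 and 8.66 with no DOX and 9.13, 9.30 and 9.29 with +DOX. The MMSET II arrays read 6.49, 6.61 and 6.61, the Y1118A arrays 7.25, 7.33 and 7.28, the DSRed arrays 8.71, 8.61 and 8.39 and the F1177A arrays 9.20, 9.18 and 9.06. The MMSET II arrays were the lowest, the Y1118A arrays came next, and neither overlapped any other group. The +DOX and F1177A arrays were the highest and overlapped each other, as did no DOX and DSRed. The difference of MMSET II from DSRed, which chose the gene, was -2 (4.01-fold lower), and it carries no test. In arrays that played no part in that choice, PIK3IP1 rose with +DOX against no DOX by 0.62 (SE 0.129, limma adjusted p = 0.000922, 1.53-fold). It was also higher in F1177A than in Y1118A by 1.86 (SE 0.129, limma adjusted p = 8.53e-09, 3.63-fold). Both calls held under median scaling (1.29, adjusted p = 0.000888, and 1.08, adjusted p = 0.00248).

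YPEL3 is a small nuclear protein of the yippee family that has been described as an inducer of growth arrest and senescence. It read 9.23, 9.49 and 9.71 with no DOX and 9.72, 9.52 and 9.82 with +DOX. In the repletion system MMSET II read 6.82, 6.87 and 6.73, the Y1118A arrays 8.05, 8.19 and 7.96, the DSRed arrays 8.97, 8.93 and 8.79 and the F1177A arrays 9.22, 9.33 and 9.35. The order of the repletion groups was that of PIK3IP1, with no overlap between any of the 4, while no DOX and +DOX overlapped. The difference of MMSET II from DSRed, again the choosing comparison and not tested, was -2.09 (4.26-fold lower). The +DOX difference of 0.21 (SE 0.115) missed the threshold (limma adjusted p = 0.145). F1177A exceeded Y1118A by 1.23 (SE 0.115, limma adjusted p = 3.07e-07, 2.35-fold). Median scaling gave the +DOX difference a call (0.86, adjusted p = 0.00847) and took it from the mutant difference (0.45, adjusted p = 0.0968), with values of 0.37 and 1.07 relative to all features.

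TP53INP1 is a stress protein that acts with p53 and in autophagy and can arrest the cell cycle. Its brighter probe read 9.80, 9.72 and 9.66 with no DOX and 10.79, 10.79 and 10.66 with +DOX. Among repletion arrays, MMSET II read 7.88, 7.64 and 7.60, the Y1118A arrays 8.33, 8.43 and 8.54, the DSRed arrays 9.15, 9.21 and 9.54 and the F1177A arrays 9.60, 9.36 and 9.51. The +DOX arrays stood above all others, MMSET II below all others, and only DSRed and F1177A overlapped. At the second probe DSRed and F1177A did not overlap. MMSET II differed from DSRed by -1.59 at this probe and by -1.65 at the second, with no test. With +DOX the gene rose by 1.02 (SE 0.11, limma adjusted p = 9.87e-07, 2.03-fold), and by 0.77 at the second probe (adjusted p = 9.63e-06). Median scaling put the rise at 1.70, or 1.21 relative to all features. F1177A exceeded Y1118A by 1.06 (SE 0.11, limma adjusted p = 1.29e-06), and by 1.17 at the second probe (adjusted p = 9.96e-08). Under median scaling the brighter probe's difference between the mutants was 0.28 and not called (adjusted p = 0.416), or 0.90 relative to all features.

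PIK3IP1, YPEL3 and TP53INP1 shared their order of repletion groups, F1177A above DSRed above Y1118A above MMSET II. The steps among those groups share arrays with the choosing comparison and are given without a test. Y1118A differed from DSRed by -1.29, -0.83 and -0.86 for PIK3IP1, YPEL3 and TP53INP1, and MMSET II differed from Y1118A by -0.72, -1.26 and -0.73. F1177A was higher than DSRed by 0.57, 0.40 and 0.20 in the same order (0.51 at the second TP53INP1 probe). Without DSRed replicate 3, the brightest array, those F1177A values were 0.48, 0.35 and 0.32. Under median scaling they were 0.06, -0.10 and -0.29, against a median of all features of -0.413, so the place of F1177A above DSRed depends on the scaling.

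**Figure D1:**
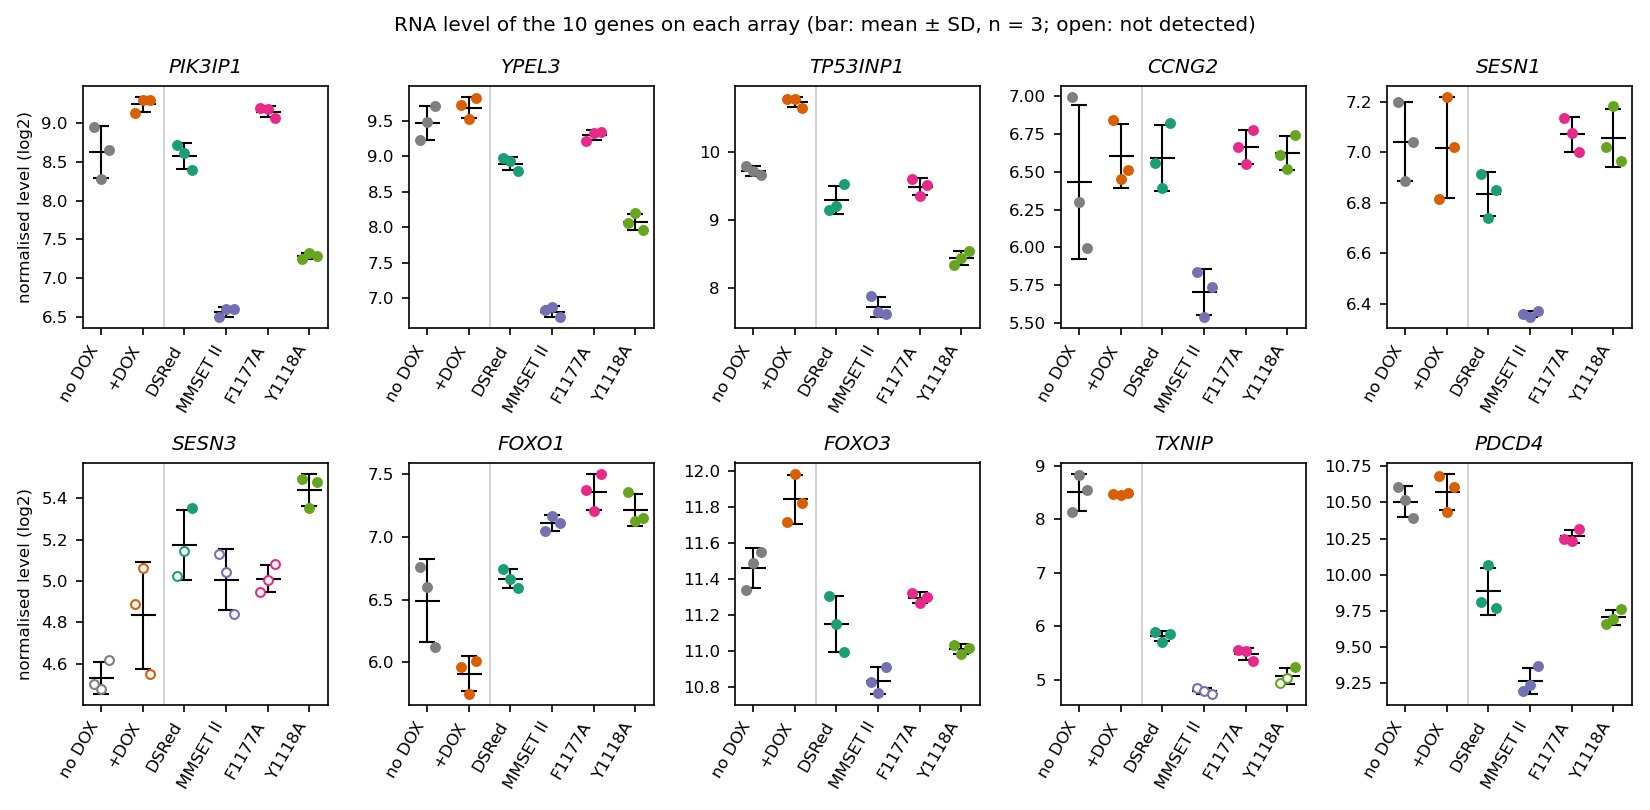
Normalised level (log2 intensity, vertical axis, a scale of its own for each gene) of the 10 genes on each of the 18 arrays, by group, with the mean and SD of 3 arrays as bars and open circles where the probe was not detected. PIK3IP1, YPEL3 and TP53INP1 are lowest with MMSET II and next lowest with Y1118A, FOXO1 is lowest with +DOX, and TXNIP lies above 8 in the hairpin cells and below 6 in the repletion cells.

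CCNG2, an unconventional cyclin that holds cells back in the cycle and is a known FOXO target, was lower with MMSET II than in the other 5 groups. It read 5.84, 5.54 and 5.74 on the MMSET II arrays, 6.55, 6.39 and 6.82 on the DSRed arrays, 6.66, 6.55 and 6.77 on the F1177A arrays, and 6.61, 6.51 and 6.74 on the Y1118A arrays. The last 3 groups overlapped. The difference of MMSET II from Y1118A was -0.92 (SE 0.187, limma adjusted p = 0.00177), and the value was -1 under median scaling with no call (adjusted p = 0.0571). The hairpin arrays spread widely, from 6 to 6.99 with no DOX and from 6.45 to 6.84 with +DOX, with no call (0.17, SE 0.187, limma adjusted p = 0.494). Of 2 dimmer CCNG2 probes, 1 was detected on all hairpin arrays (means 5.90 and 5.97) and on 1 of the 12 repletion arrays (group means 4.70 to 5.11). The other was detected on 3 of 18 arrays.

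The sestrins are stress proteins that restrain mTOR complex 1. SESN1 read 6.36, 6.35 and 6.37 on the MMSET II arrays, 6.92, 6.74 and 6.85 on the DSRed arrays, 7.14, 7.08 and 7 on the F1177A arrays, and 7.02, 7.18 and 6.96 on the Y1118A arrays. MMSET II stood below every other array, hairpin arrays included, which read 6.82 to 7.22. SESN1 fell by 0.70 with MMSET II against Y1118A (SE 0.115, limma adjusted p = 0.000262), with -0.74 and no call under median scaling (adjusted p = 0.0786). CCNG2 and SESN1 had the closest profiles of any members over the 6 group means, 0.14 apart as a root mean square log2 difference after centring.

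SESN3, a FOXO target in several cell types, was near background. Its probe was detected on all 3 Y1118A arrays, on 1 DSRed array and on none of the other 14, so it passed the detection filter through the group where it was highest. It read 5.49, 5.35 and 5.48 on the Y1118A arrays, 5.13, 5.04 and 4.84 on the MMSET II arrays, and 4.95, 5 and 5.08 on the F1177A arrays. The Y1118A arrays stood above both of these groups and touched the DSRed range, which reached 5.35. Because that group let it in, its differences from Y1118A (-0.43 for F1177A and -0.44 for MMSET II) are given without a test, and it is left out of the counts of called genes in comparisons with Y1118A.

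FOXO1 and FOXO3 are the transcription factors at the end of the pathway, and their RNA went in different directions with +DOX. FOXO1 read 6.76, 6.60 and 6.12 with no DOX and 5.96, 5.75 and 6.02 with +DOX, with no overlap, and it fell by 0.58 (SE 0.139, limma adjusted p = 0.00257). With median scaling in place of quantile normalisation it was not called (-0.08, adjusted p = 0.791), and stood at -0.57 relative to all features. In a model of the hairpin arrays alone the adjusted p was 0.0509.

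In the repletion cells FOXO1 read 6.75, 6.67 and 6.60 with DSRed, below all arrays of MMSET II (7.05, 7.17 and 7.11), of F1177A (7.37, 7.21 and 7.50) and of Y1118A (7.36, 7.13 and 7.15). The Y1118A arrays overlapped those of MMSET II and of F1177A, while all F1177A arrays lay above all MMSET II arrays. FOXO1 rose against DSRed by 0.69 with F1177A (SE 0.139, limma adjusted p = 0.0016) and by 0.54 with Y1118A (SE 0.139, limma adjusted p = 0.00702), 2 comparisons that share the DSRed arrays. The F1177A value was 0.25 under median scaling and not called (adjusted p = 0.391), or 0.66 relative to all features. Wild-type MMSET II stood 0.44 above DSRed, a described value from the choosing comparison. FOXO1 was thus the member whose profile lay farthest from those of PIK3IP1, YPEL3 and TP53INP1 (root mean square 1.30 to 1.38).

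FOXO3 read 11.34, 11.49 and 11.55 with no DOX and 11.72, 11.99 and 11.82 with +DOX. All +DOX arrays were above all no DOX arrays, and it rose by 0.38 (SE 0.0891, limma adjusted p = 0.00215), or by 1.04 under median scaling (0.55 relative to all features). In the repletion system MMSET II read 10.83, 10.77 and 10.91, the Y1118A arrays 11.03, 10.98 and 11.02, the DSRed arrays 11.30, 11.15 and 11 and the F1177A arrays 11.32, 11.27 and 11.30. MMSET II was lowest, and DSRed overlapped both mutants. F1177A exceeded Y1118A by 0.29 (SE 0.0891, limma adjusted p = 0.018), but the difference was -0.41 under median scaling, or 0.21 relative to all features. That call was lost without F1177A replicate 1 (adjusted p = 0.0517) or Y1118A replicate 2 (0.0575).

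TXNIP, an arrestin-like protein that inhibits thioredoxin and glucose uptake, had, of the 10 genes, the widest gap between the 2 systems. It read 8.14, 8.84 and 8.56 with no DOX and 8.48, 8.46 and 8.50 with +DOX, with a difference of -0.03 (SE 0.139, limma adjusted p = 0.891). The MMSET II arrays read 4.84, 4.78 and 4.74, the Y1118A arrays 4.93, 5.04 and 5.23, the DSRed arrays 5.89, 5.71 and 5.85 and the F1177A arrays 5.55, 5.54 and 5.34. None of the 4 repletion groups overlapped. The probe was detected on all DSRed and F1177A arrays, on 1 Y1118A array and on no MMSET II array. In MMSET II it was therefore at least 1.56-fold lower than in DSRed, a described value.

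TXNIP fell with Y1118A, where 1 of 3 arrays detected it, against DSRed by 0.75 (SE 0.139, limma adjusted p = 0.000628), with -0.70 under median scaling (adjusted p = 0.0561). F1177A exceeded Y1118A by 0.41 (SE 0.139, limma adjusted p = 0.0265), with 0.11 under median scaling and no call (adjusted p = 0.66). That call was also lost without F1177A replicate 1 or 2 or Y1118A replicate 1 or 2 (adjusted p of 0.072 to 0.106). The hairpin and repletion cells differ in more than MMSET, and the gap between them was not tested.

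PDCD4, which inhibits the translation helicase eIF4A and is degraded when mTOR signalling is active, was measured by 2 probes. The brighter read 10.61, 10.52 and 10.39 with no DOX and 10.68, 10.43 and 10.60 with +DOX, with no call (0.07, SE 0.0949, limma adjusted p = 0.598). The MMSET II arrays read 9.19, 9.24 and 9.37, the Y1118A arrays 9.66, 9.70 and 9.76, the DSRed arrays 9.81, 10.07 and 9.77 and the F1177A arrays 10.25, 10.23 and 10.32. The repletion groups did not overlap, although DSRed and Y1118A were separated by 0.01 at their closest arrays.

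PDCD4 was higher in F1177A than in Y1118A by 0.56 (SE 0.0949, limma adjusted p = 0.000237) and higher than in DSRed by 0.38 (SE 0.0949, limma adjusted p = 0.0075). The second probe gave 0.10 (adjusted p = 0.548) and -0.11 (adjusted p = 0.585) for these, and median scaling turned the brighter probe's values to -0.23 and -0.12, or 0.39 and 0.29 relative to all features. The fall with MMSET II against Y1118A was seen at both probes, by 0.44 (SE 0.0949, limma adjusted p = 0.00281) and by 0.61 (adjusted p = 0.00243), with -0.44 at the brighter one under median scaling and no call (adjusted p = 0.435).

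**Figure D2:**
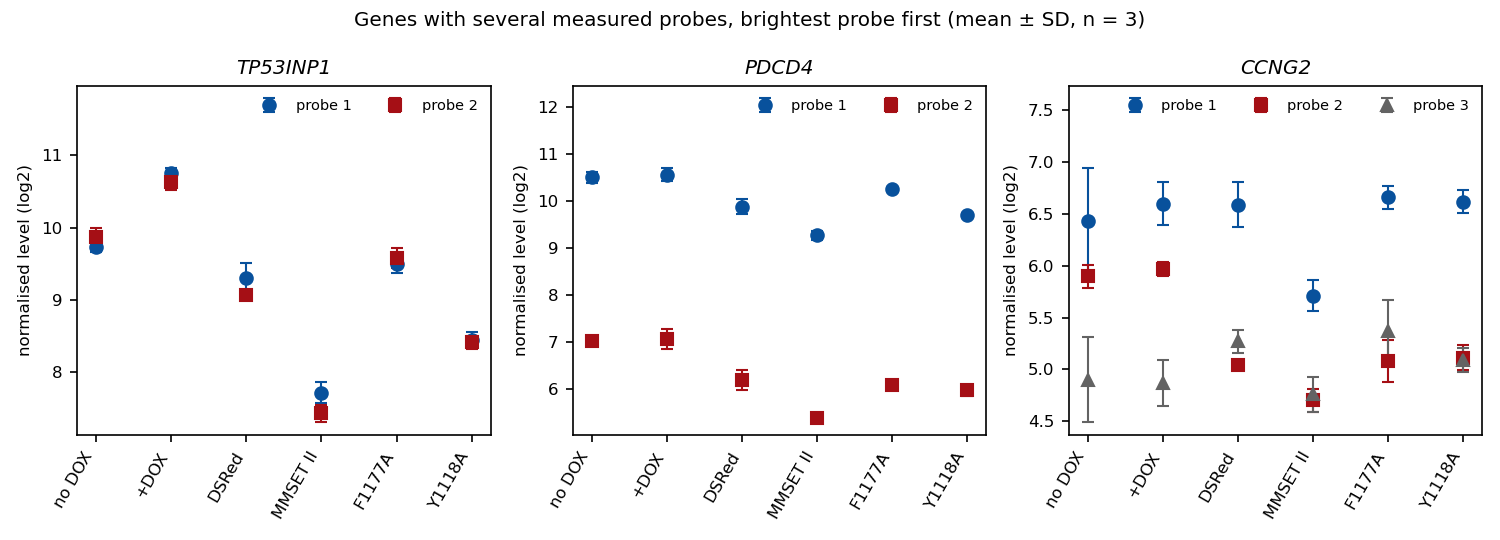
Normalised level (log2 intensity, mean ± SD of 3 arrays, vertical axis) in the 6 groups for the 3 genes with more than 1 measured probe. The TP53INP1 probes follow each other closely, the PDCD4 probes differ on F1177A against Y1118A (0.56 and 0.10), and CCNG2 probe 2 is higher in the hairpin cells (5.90 and 5.97) than in any repletion group.

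Counted by comparison, +DOX against no DOX called 4 of the 10 genes, PIK3IP1, TP53INP1 and FOXO3 higher and FOXO1 lower. Of all 10954 features 41.3% were called (21.2% higher and 20.1% lower), so the share of the genes called was near the background. Their median difference was 0.19, against 0.01 for all features. Median scaling called 6 with +DOX, all higher: PIK3IP1, YPEL3, TP53INP1, FOXO3, TXNIP (0.62) and PDCD4 (0.71), with all features at a median of 0.486. Leaving out SESN3, F1177A against Y1118A called 6 of 9, all higher (PIK3IP1, YPEL3, TP53INP1, FOXO3, TXNIP and PDCD4), where 36.7% of all features were called (17.8% higher and 18.9% lower). The median difference of the 9 was 0.41, against -0.01 for all features. PIK3IP1, YPEL3 and TP53INP1 were chosen for a difference within the same repletion system, so the share of all features is no fair background for them. Of the genes chosen by role, FOXO3, TXNIP and PDCD4 were called, and CCNG2, SESN1 and FOXO1 were not. Without F1177A replicate 1 the count of the 9 was 4, PIK3IP1, YPEL3, TP53INP1 and PDCD4. Under median scaling 3 of the 9 were called, PIK3IP1 higher (1.08, adjusted p = 0.00248) and SESN1 and FOXO1 lower (-0.68 and -0.57), with all features at a median of -0.618. Relative to that median PIK3IP1 stood at 1.70, YPEL3 at 1.07, TP53INP1 at 0.90 and TXNIP at 0.73, while CCNG2, SESN1, SESN3 and FOXO1 lay between -0.09 and 0.05.

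For the 7 genes chosen by role, F1177A against DSRed called 2, FOXO1 and PDCD4, both higher, beside 20.5% of all features (11.7% higher and 8.79% lower). Leaving out SESN3, Y1118A against DSRed called 2 of 6, FOXO1 higher and TXNIP lower, beside 27.7% of all features (15.3% higher and 12.4% lower). In MMSET II against Y1118A, again without SESN3, the genes called were CCNG2, SESN1 and PDCD4, all lower, or 3 of 6 beside 18.5% of all features (9.16% higher and 9.33% lower). The median of the 6 differences there was -0.36, against 0 for all features. All 3 calls were lost with median scaling, although the differences were -1, -0.74 and -0.44 and the median of all features -0.001. These 3 comparisons share arrays with each other and with the choosing comparison.

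**Figure D3:**
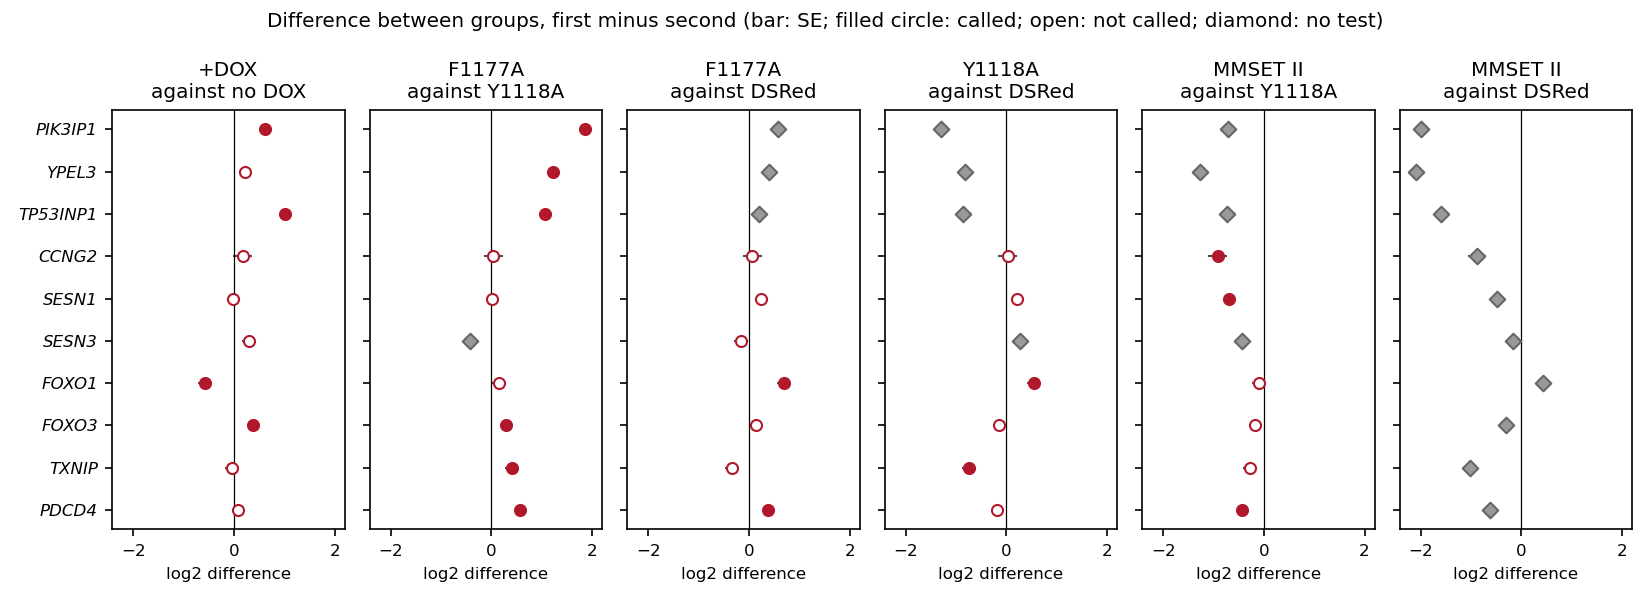
Log2 difference of the 10 genes (horizontal axis, first group minus second, bars are SE) in 6 comparisons, with filled circles for called, open circles for not called and diamonds for values with no test (SESN3 against Y1118A included). PIK3IP1, YPEL3 and TP53INP1 lie at -2, -2.09 and -1.59 in MMSET II against DSRed, and at 1.86, 1.23 and 1.06 in F1177A against Y1118A.

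The other genes of the pathway were taken from lists written from general knowledge. Their counts are to be read beside the shares of all 10954 features called. These were 21.2% higher and 20.1% lower with +DOX, and 17.8% higher and 18.9% lower in F1177A against Y1118A. Of 4 measured PI3K kinase and adaptor subunits, 1 was called with +DOX, PIK3CG, the gamma catalytic subunit. It fell by 0.32 (limma adjusted p = 0.0431) and was detected on 2 of 3 +DOX arrays. Against Y1118A, F1177A had lower RNA of 2, the regulatory subunit PIK3R1 (-0.44, limma adjusted p = 0.0346) and the beta catalytic subunit PIK3CB, which was detected on no F1177A array and was at least 1.3-fold lower there.

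Of 10 other brakes on PI3K, AKT and mTOR, 2 (20%) were called higher and 3 (30%) lower with +DOX, while median scaling called 4 higher and 0 lower. DEPTOR, an inhibitor within the mTOR complexes, rose by 0.72 (limma adjusted p = 2e-04), and AKT1S1, a further mTOR complex 1 inhibitor, was at least 1.36-fold higher. DDIT4, a stress-induced mTOR brake, fell by 0.76 (limma adjusted p = 0.000128), and the lipid phosphatase INPPL1 fell by 0.50 (0.000721). The remaining gene called lower, the AKT phosphatase PHLPP1, was below background in both groups, so no fall was measured for it. In F1177A against Y1118A, 2 of the 10 rose and 0 fell by this test: PHLPP1 (0.89, limma adjusted p = 0.000286) and the pseudokinase TRIB3 (0.68, adjusted p = 0.0174). Under median scaling 0 of the 10 were higher and 7 lower there.

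Of 13 measured genes of the AKT and mTOR arm, 3 rose and 3 fell with +DOX (6 and 1 under median scaling). At 23.1% each way, this was near the share of all features. The largest changes were in SGK1, a kinase related to AKT that also phosphorylates FOXO3 (0.96, limma adjusted p = 3.06e-06), and MLST8, a subunit shared by both mTOR complexes (-1.24, limma adjusted p = 3.57e-07). EIF4EBP1, the translation repressor that mTOR inactivates, fell by 0.78 (limma adjusted p = 0.000676), and GSK3B rose by 0.47 (0.0032). In F1177A against Y1118A, 3 of 13 fell (11 under median scaling), among them PDPK1, the kinase that activates AKT (-0.74, limma adjusted p = 0.00157), and SGK1 (-0.50, adjusted p = 0.00248). AKT1 itself was called in 1 of the 5 comparisons tested, Y1118A against DSRed (0.45, limma adjusted p = 0.0216). There 6 of the 13 (46.2%) were called higher, beside 15.3% of all features, and 1 under median scaling.

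Of 24 measured genes reported as FOXO targets elsewhere, 9 were higher and 5 lower with +DOX (13 and 0 under median scaling), with a median difference of 0.19 against 0.01 for all features. BCL6, a transcriptional repressor of germinal centre B cells, rose by 1.59 (limma adjusted p = 8.27e-07), but with no DOX it was near background (4.88 ± 0.49). There 1 of 3 arrays detected it, so the size of its rise is uncertain. The Krüppel-like factors KLF2 and KLF6 rose by 0.87 (limma adjusted p = 6.64e-05) and 0.79 (2.97e-05). CDKN2D, the p19 inhibitor of cyclin D kinases, fell by 0.99 (limma adjusted p = 0.00112), catalase (CAT) fell by 0.75 (0.000129) and the autophagy kinase ULK1 fell by 0.65 (0.000177). In F1177A against Y1118A 12 of the 24, or 50%, were higher and 2 lower, with a median of 0.31 against -0.01, whereas median scaling called 0 higher and 6 lower, with the list 0.31 above the median of all features. CDKN2D was higher there by 1.11 (limma adjusted p = 0.000677), the growth-arrest gene GADD45A by 0.88 (6.55e-06) and the ubiquitin ligase FBXO32 by 0.68 (0.000754). The co-regulator CITED2 (-0.63, limma adjusted p = 0.0188) and the mitophagy receptor BNIP3 (-0.39, adjusted p = 0.0108) were the 2 lower ones. CDKN2D thus fell with +DOX, where PIK3IP1 and TP53INP1 rose, and was higher in F1177A, where they were higher too.

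Of 15 measured relatives and partners, 0 rose and 4 fell with +DOX, whereas median scaling called 3 higher and 0 lower. The 4 included the yippee gene YPEL1 (-0.67, limma adjusted p = 0.00537) and thioredoxin (TXN), the partner of TXNIP (-0.28, adjusted p = 0.00491). In F1177A against Y1118A 5 were higher and 2 lower, while median scaling called 0 higher and 5 lower, with the list 0.37 above all features. The higher ones included the TXNIP relative ARRDC3 (0.81, limma adjusted p = 0.00419), TP53INP2 (0.75, 0.000221), YPEL1 (0.71, 0.00487) and FOXO4 (0.45, 0.00952). The translation helicases EIF4A1 and EIF4A2, which PDCD4 inhibits, were the lower ones (-0.53, limma adjusted p = 0.00252, and -0.42, adjusted p = 0.00495). YPEL5 differed in MMSET II against Y1118A (-0.67, limma adjusted p = 0.00048), and SESN2 in Y1118A against DSRed (-1.01, limma adjusted p = 0.00354).

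Of 11 measured p53 targets, 2 rose and 1 fell with +DOX (5 and 0 under median scaling), and 0 rose and 2 fell in F1177A against Y1118A (0 and 7). The shares, 18.2% and 9.09% with +DOX and 0% and 18.2% between the mutants, were below those of all features, the 18.2% only slightly. With 11 genes 1 call is 9.09%, so no deficit can be read from them. TIGAR, a regulator of sugar breakdown, was higher with +DOX by 0.84 (limma adjusted p = 0.000749), although only 2 of 3 no DOX arrays detected it. It was lower in F1177A than in Y1118A (-1.05, limma adjusted p = 0.000187), where TP53INP1 was higher. Of 13 proliferation markers, 2 (15.4%) rose and 1 (7.69%) fell with +DOX (8 and 1 under median scaling). CCNB1, a mitotic cyclin, rose by 0.75 (limma adjusted p = 0.00368), and CCNE1, the cyclin of S-phase entry, fell by 1.46 (8.73e-06). In F1177A against Y1118A 1 proliferation marker was higher, MKI67 (0.54, limma adjusted p = 0.0282), and 2 were lower, CCNB1 (-0.80, adjusted p = 0.00304) and BUB1 (-0.43, adjusted p = 0.0186), while median scaling called 0 higher and 9 lower. Against DSRed 7 of the 13 (53.8%, all features 15.3%) were higher and 0 lower with Y1118A, or 2 and 0 under median scaling. Their median difference was 0.44 against 0.01 for all features. With F1177A against DSRed 4 (30.8%, all features 11.7%) were higher and 0 lower, or 0 and 0 under median scaling, with a median of 0.49 against -0.01. In MMSET II against Y1118A 0 of the 13 were called by limma, beside 18.5% of all features, with a median of 0.01.

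**Figure D4:**
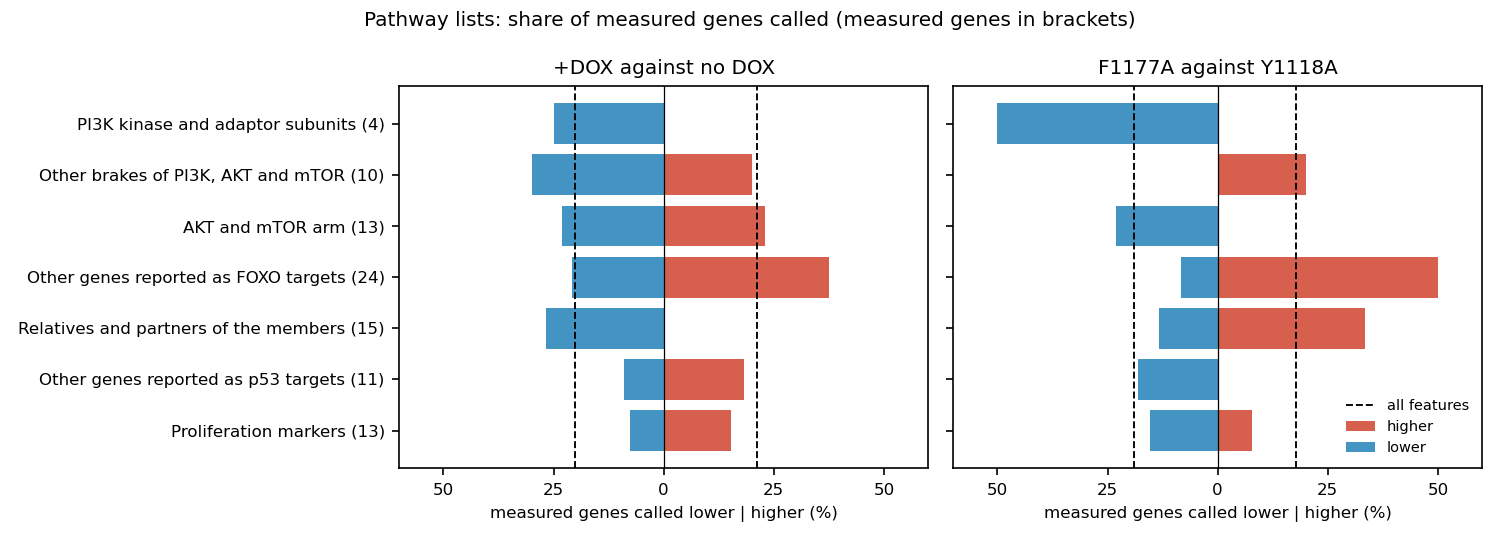
Share of the measured genes of each pathway list that were called (percent, horizontal axis, lower to the left and higher to the right of 0) in 2 comparisons, with the number measured in brackets and dashed lines at the share of all 10954 features called in that direction. Genes reported as FOXO targets show 37.5% higher with +DOX (all features 21.2%) and 50% higher in F1177A against Y1118A (all features 17.8%).

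The genes whose pattern over the 6 group means was most like PIK3IP1, after each gene was centred on its own mean, were YPEL3 (root mean square log2 difference 0.26), TMEM140 (0.36), TP53INP1 (0.37) and CALCOCO1 (0.37). For YPEL3 they were TMEM140 (0.22), PIK3IP1 (0.26), KLHL24 (0.31) and SRPK2 (0.32), and for TP53INP1 they were YPEL3 (0.33), SRPK2 (0.35), KLHL24 (0.36) and PIK3IP1 (0.37). The likeness of PIK3IP1, YPEL3 and TP53INP1 to each other was partly fixed by their choice. TMEM140 read 9.64, 9.34, 8.65, 6.78, 9.01 and 7.56 as group means for no DOX, +DOX, DSRed, MMSET II, F1177A and Y1118A. Its repletion order was that of PIK3IP1, while its +DOX mean was the lower of the hairpin pair. FOXO3 and PDCD4 were each other's nearest members (0.20).

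**Figure D5:**
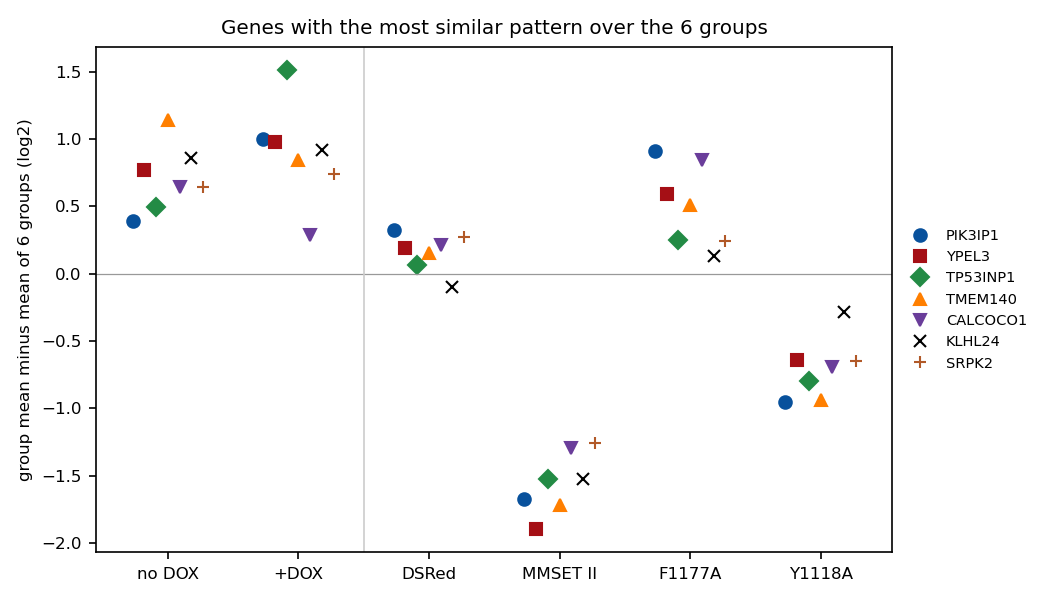
Group mean minus the mean of the 6 groups (log2, vertical axis) for PIK3IP1, YPEL3, TP53INP1 and the 4 other genes with the most similar patterns, over the 6 groups. All 7 genes are lowest with MMSET II, and TMEM140 is higher with no DOX (9.64) than with +DOX (9.34), unlike PIK3IP1 (8.63 and 9.24).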

How the data were processed

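Biotin-labelled cRNA was made from total RNA, per the labels' protocols. The authors' deposited table holds a linear probe intensity per array, called non-normalized per the file headers. Of these values 31.1% are below 0, so they are background-subtracted, with a method not given in the sources used here. A detection p-value stands beside each intensity in the deposited table. The submitters' processing notes name GenomeStudio 1.5.4. The deposited series matrix, read as intensity with a median of 3 in every column, served only as an alternative.

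Here the background was corrected by neqc (limma 3.58.1, R 4.3.3), with control mean and spread inferred from detection p-values and an offset of 16, which makes log2 differences of dim genes too small. Arrays were quantile-normalised together. Probes with a detection p under 0.01 on at least 3 of 18 arrays were kept (13336), and each symbol took its brightest probe, giving 10954 features (8947 named genes). Between 10731 and 12170 probes were detected per array, and the number of arrays limits the precision. The platform annotation gave 1 symbol for 27578 probes, several for 13 and none for 21212.

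Groups came from the labels alone. A single limma model with 6 group coefficients (12 residual degrees of freedom, intensity trend) gave two-sided tests, with Benjamini-Hochberg adjustment over all features within each of 5 comparisons. A sixth, MMSET II against DSRed, was described only. The limma procedure was tested on simulated data with independent noise and no brightness differences between arrays, so that test does not bear on the scaling. Where 1 group was not above background, the brighter mean was set against the lowest detected signal and written as at least N-fold. The members and gene lists were chosen with earlier results of these data known. Genes named beside the members are the up to 3 called genes per list and direction with the largest differences in the hairpin and mutant comparisons, AKT1, FOXO4, SESN2, YPEL5 and TXN, and the 4 nearest patterns. Some genes that this rule picks are given by counts only. Alternatives covered scaling, the filter, the probe rule, the samples fitted, the series matrix, a replicate block and single arrays left out.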

Additional observations from a re-analysis of the deposited data

How the results depend on the processing

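Calls depended most on the scaling. Each array was shifted to a common median of all probes, most of them undetected, in place of quantile normalisation. The median difference of all features was then 0.486 (log2) with +DOX, -0.618 in F1177A against Y1118A, -0.413 in F1177A against DSRed, 0.214 in Y1118A against DSRed and -0.001 in MMSET II against Y1118A. In that order 95.9%, 3.91%, 18%, 88.2% and 67.9% of calls were then higher (51.3%, 48.5%, 57.2%, 55.3% and 49.5% with quantile normalisation). Features called were 6831 in F1177A against Y1118A (4020 with quantile normalisation), 831 in Y1118A against DSRed (3038) and 561 in MMSET II against Y1118A (2025). With SESN3 left out of comparisons with Y1118A, members called were 3 in F1177A against Y1118A (6), 0 in F1177A against DSRed (2), 1 in Y1118A against DSRed (2) and 0 in MMSET II against Y1118A (3). Signs turned with +DOX for SESN1 (0.52) and TXNIP (0.62, limma adjusted p = 0.0307), in F1177A against Y1118A for CCNG2 (-0.62), SESN1 (-0.68), FOXO1 (-0.57), FOXO3 (-0.41) and PDCD4 (-0.23), in F1177A against DSRed for YPEL3 (-0.10), TP53INP1 (-0.29), CCNG2 (-0.33), SESN1 (-0.20), FOXO3 (-0.33) and PDCD4 (-0.12), and in Y1118A against DSRed for FOXO3 (0.08) and PDCD4 (0.11). The cause was not tested. Requiring detection on all 18 arrays tested fewer genes and called 1441 features in F1177A against DSRed (2250) and 1 member in Y1118A against DSRed (2), since TXNIP was no longer tested. Without any filter FOXO3 (adjusted p = 0.0506) and TXNIP (0.0659) lost their calls in F1177A against Y1118A. Models of the compared groups alone, with fewer samples, called 2828 features with +DOX (4526), 6123 in F1177A against Y1118A (4020) and 4074 in MMSET II against Y1118A (2025). Leaving out single arrays gave 3599 to 5097 features with +DOX, 2740 to 3443 in F1177A against Y1118A, 1506 to 2083 in F1177A against DSRed, 1901 to 4272 in Y1118A against DSRed and 1348 to 1526 in MMSET II against Y1118A. Counts moved by over 1.5 times in Y1118A against DSRed without DSRed replicate 1 (1901), DSRed replicate 2 (1923) or Y1118A replicate 3 (2016), and in MMSET II against Y1118A without Y1118A replicate 1 (1348). With single arrays left out, members called ranged from 4 to 5 with +DOX and were 2 in every such fit of F1177A or Y1118A against DSRed. Leaving out SESN3, the calls of CCNG2, SESN1 and PDCD4 held in every such fit of MMSET II against Y1118A. In F1177A against Y1118A those of PIK3IP1, YPEL3, TP53INP1 and PDCD4 held, while FOXO3 and TXNIP lost theirs in some fits. With +DOX, calls were gained by CCNG2 without no DOX replicate 1 (0.45, adjusted p = 0.0205) and YPEL3 without no DOX replicate 3 (0.33, 0.0347). SESN3, detected on no hairpin array, also gained a call, without +DOX replicate 3 (0.44, limma adjusted p = 0.0168). Ranges crossed 0 with +DOX for SESN1 (-0.12 to 0.08), TXNIP (-0.21 to 0.13) and CCNG2 (-0.05 to 0.45), in F1177A against Y1118A for SESN1 (-0.03 to 0.08) and CCNG2 (-0.02 to 0.10), and for CCNG2 in F1177A against DSRed (-0.03 to 0.19) and Y1118A against DSRed (-0.06 to 0.15). Same-numbered replicates did not all deviate together (correlations of -0.61 to 0.34), but with 3 arrays per group this cannot settle whether the numbers pair the arrays. In the hairpin system the probes detected ran alike by replicate number, 12170, 11175 and 11465 with no DOX and 12129, 11162 and 11328 with +DOX. With the replicate block 4400, 3827, 2108, 2883 and 1869 features were called in the order above. Members called were 4, 7, 2, 2 and 4, here with SESN3 counted. With SESN3 counted, quantile normalisation without the block gave the same 7 in F1177A against Y1118A and 4 in MMSET II against Y1118A. A slide or scan block was not run, since the tables used here name none.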
